A study of Mus musculus with 6 samples.

Results

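The genes described here build sugar structures that are put onto proteins in the endoplasmic reticulum (ER): 45 genes of N-glycan assembly, transfer and trimming, and 19 genes that make the glycosylphosphatidylinositol (GPI) anchor and attach it. They were chosen by a rule on symbols that used no measured value, but earlier results of these data were known. The rule took all genes of the table named Alg, Dpm, Dpagt1, Dolk, Dolpp1, Stt3, Rpn1, Rpn2, Ddost, Dad1, Tusc3, Magt1, Mogs, Ganab, Prkcsh, Uggt, Man1, Man2a, Mgat, Pmm, Gmpp, Pig followed by a single letter, or Gpaa1. This gave 64 of the 10245 genes of the table, in which the lowest mean of a gene over the libraries was 16.8 normalized counts. A further 8 genes of these families were not in the table and were not analysed here, namely Mgat3, Mgat4c, Mgat4d, Mgat5, Mgat5b, Pigy, Pigw and Pigz.

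As background, an N-glycan is first built on the lipid dolichol. The Alg enzymes add N-acetylglucosamine (GlcNAc), mannose and glucose one by one, with GDP-mannose, dolichol-phosphate-mannose and dolichol-phosphate-glucose as sources. The oligosaccharyltransferase then moves the finished oligosaccharide onto asparagines of proteins entering the ER. Glucosidases trim it while lectin chaperones hold the folding protein, mannosidases trim it further in the ER and Golgi, and the Mgat enzymes start the branches of complex glycans. The GPI anchor is a separate glycolipid that the Pig enzymes build in the same membrane and that a transamidase couples to the C-terminus of proteins destined for the cell surface. Pancreatic acinar cells, which make and secrete digestive enzymes, carry an extensive ER, and their most abundant GPI-anchored protein, Gp2, coats the zymogen granule membrane.

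The 6 libraries come from whole pancreata. The control mice were 3 animals of genotype Ptf1a(CreER/+), aged 4 months, and the Ptf1a conditional knockout (cKO) mice 3 animals of genotype Ptf1a(CreER/fl), aged 5 months. Both genotypes carry Cre recombinase in place of 1 Ptf1a allele, so the controls have a single working copy of Ptf1a, the transcription factor that maintains acinar gene expression. The study's methods also give all its inducible-Cre mice a fluorescent R26R EYFP reporter. All 6 mice received tamoxifen by gavage at 0.25 mg/g on 3 days and were sacrificed on day 14. Cre is driven from the Ptf1a locus and so acts in cells that use it, in the adult pancreas the acinar cells, and whole tissue also holds cells in which it has not acted. Each group held 1 male and 2 females. Age followed genotype, and the contributions of age and genotype cannot be told apart. Each library came from a separate mouse.

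Ptf1a itself was measured at 566, 601 and 652 normalized counts in control replicates 1 to 3 and at 19.8, 70.1 and 10.2 in Ptf1a cKO replicates 1 to 3 (log2 fold change -4.41, SE 0.49, limma adjusted p = 0.000329), so each library matched its label. Replicate 2 kept the most Ptf1a of the Ptf1a cKO libraries. The values are read counts that the authors scaled across libraries, with the median gene between 125 and 129 in every library. The scaled values do not hold the read depth of a library, for which the study's methods give aligned reads. The tissue was checked against its markers. The 13 acinar markers summed to 1.05e+07 to 1.33e+07 normalized counts in the controls and to 1.33e+06 to 4.10e+06 in Ptf1a cKO, and 11 of the 13 fell. Among markers of other cells, 3 of 6 ductal, 5 of 6 leukocyte and 8 of 9 fibroblast and stellate markers rose, and none of 7 endothelial or 7 endocrine markers passed the test (1 and 0 at an unadjusted p under 0.05 by limma, and none passed without the trend or with robust estimation). The leukocyte marker that did not pass was Ptprc, at 86.6, 57.0 and 419 in Ptf1a cKO replicates 1 to 3 (limma adjusted p = 0.0772). Cd3e, Cd3g and Cd79a, also on the leukocyte list, were not in the table. In whole tissue, fewer cells of a type and less RNA per cell cannot be told apart.

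Of the 64 genes, 10 fell (15.6%) and 9 rose (14.1%) in Ptf1a cKO by limma, a linear model fitted over all genes of the table, at a Benjamini-Hochberg adjusted p under 0.05. Across all 10245 genes 16.8% fell and 17.1% rose (33.9% in either direction), so the 29.7% of glycan and anchor genes that changed lay near the background of this comparison. The values of the 2 groups did not overlap in 33 of the 64, lower in 17 and higher in 16. Over the table this held for 50.8% of genes (24.3% lower and 26.5% higher). The changes were also of moderate size. The median absolute log2 fold change was 0.25, against 0.33 over all genes, and 4 of the 64 both passed the test and changed at least 2-fold (Pmm1, Pigh, Pigp and Mogs), against 11.0% of all genes (4.69% lower and 6.35% higher). As a signed value, the median fold change was at log2 -0.06 for the 64 genes and 0.04 over the whole table. Of the 19 changes, 12 held in all 6 fits that left out 1 library (6 lower and 6 higher). The count of lower genes was 6 and the count of higher genes was 6 without control replicate 2.

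The direction of the genes that fell, or that lay near 0, depends on how libraries are set against each other, while the 9 genes that rose had positive log2 fold changes under each scaling tried. With libraries rescaled to the same total over genes the median gene had a log2 fold change of 1.48, with 0 of the 64 genes lower and 63 higher. With equal totals outside the digestive enzymes that of the median gene was -0.13, with 16 lower and 6 higher. Relative to the median gene at equal totals, all 10 genes that fell stayed below it (by -1.04 to -0.34) and all 9 that rose stayed above it (by 0.40 to 2.15). Rescaling moves all genes by nearly the same amount, so this restates the values of the deposited scaling and is no separate check. Directions given below are those of the deposited scaling, that is, relative to the median gene.

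**Figure D1:**
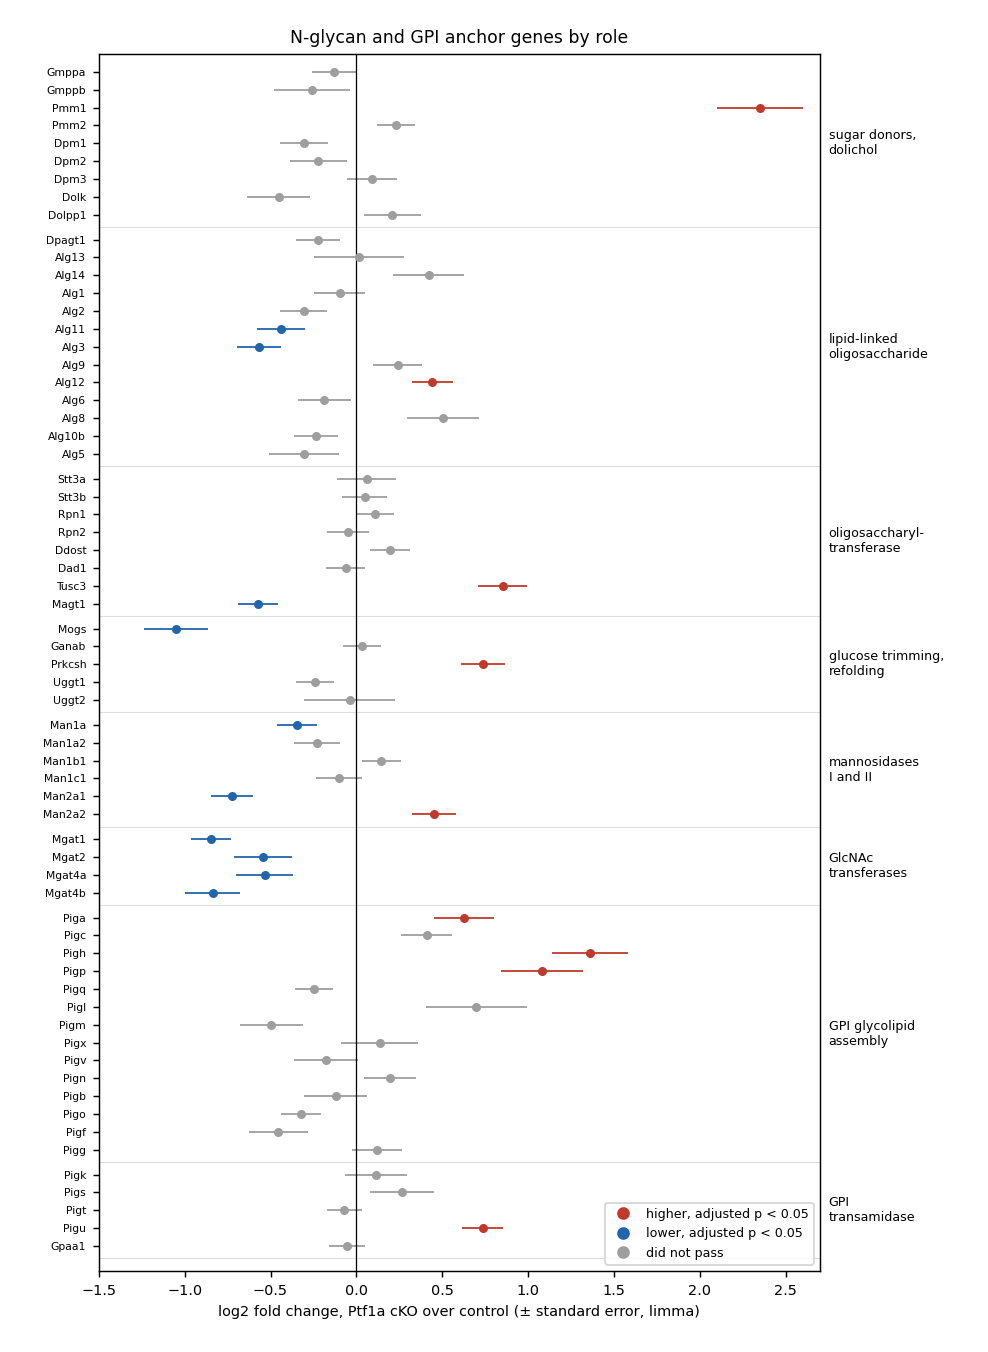
Log2 fold change of each of the 64 genes (points, x axis, Ptf1a cKO over control, deposited scaling) with its standard error from limma (bars), grouped by role. Red points rose, blue points fell and grey points did not pass the test. All 4 GlcNAc branching transferases fell and none of the 19 GPI genes did, while 16.8% of all genes of the table fell. With equal library totals 63 of the 64 genes were higher.

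The 2 pathways are given apart. Among the 45 N-glycan genes 10 fell (22.2%) and 5 rose (11.1%), with a median log2 fold change of -0.10. Of all genes 16.8% fell and 17.1% rose. The share that changed in either direction was 33.3% for the N-glycan genes and 33.9% for all genes. Among the 19 GPI genes none fell and 4 rose (21.1%), with a median of 0.12, while 3 were lower and 6 higher at an unadjusted p under 0.05. Limma without the trend called 1 GPI gene lower and 5 higher, and with robust estimation none lower and 4 higher. The difference between the pathways was not tested. The summed counts of the N-glycan genes were 19978 to 21107 in the controls and 17161 to 18519 in Ptf1a cKO, which did not overlap. The summed counts of the GPI genes were 2308 to 2497 in the controls and 2315 to 2517 in Ptf1a cKO, which overlapped almost fully.

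The 9 genes of sugar donors and dolichol included the gene with the largest change of all 64. Pmm1 is 1 of 2 phosphomannomutases, which make mannose 1-phosphate for GDP-mannose. It was measured at 16.1, 9.52 and 14.7 normalized counts in the controls and 102, 75.2 and 69.8 in Ptf1a cKO, a 6.12-fold difference of the means (log2 fold change 2.35, SE 0.25, limma adjusted p = 0.000281). Every Ptf1a cKO library was far above every control. Pmm2, the paralog whose loss causes the most frequent human disorder of N-glycosylation, was at 212, 192 and 191 in the controls and 249, 224 and 228 in Ptf1a cKO (log2 fold change 0.23, SE 0.11, limma adjusted p = 0.129). Its groups did not overlap, but the difference did not pass the test.

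The other sugar donor genes stayed closer to the controls. Gmppb, the catalytic subunit of GDP-mannose pyrophosphorylase, was at 407, 364 and 268 in the controls and 263, 395 and 222 in Ptf1a cKO (log2 fold change -0.26, SE 0.22, limma adjusted p = 0.396). Gmppa, its regulatory partner, was at 697, 601 and 565 in the controls and 594, 599 and 505 in Ptf1a cKO (log2 fold change -0.13, SE 0.13, limma adjusted p = 0.450). Both overlapped between the groups. The 3 subunits of dolichol-phosphate-mannose synthase, Dpm1, Dpm2 and Dpm3, had log2 fold changes of -0.31, -0.22 and 0.09, and Dolk, the kinase that makes dolichol phosphate, -0.45 (limma adjusted p = 0.0865). Dolpp1, which recycles the spent dolichol carrier, had 0.21. None of the 5 passed the test, but Dpm1 and Dolk were lower without overlap between the groups.

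Of the 13 genes that build the lipid-linked oligosaccharide, 2 fell and 1 rose. Dpagt1, the enzyme of the first step and the target of tunicamycin, was at 265, 261 and 249 normalized counts in the controls and 236, 245 and 187 in Ptf1a cKO (log2 fold change -0.22, SE 0.13, limma adjusted p = 0.209). The groups did not overlap, but by a margin of few counts, and the test was not passed. Alg3, which adds the first mannose from dolichol-phosphate-mannose on the lumenal side, was at 125, 128 and 118 in the controls and 79.1, 93.2 and 75.7 in Ptf1a cKO, or 66.8% of control (log2 fold change -0.57, SE 0.13, limma adjusted p = 0.00916). Alg11, which adds the last mannoses on the cytosolic side, was at 239.6, 248 and 194 in the controls and 169, 185 and 145 in Ptf1a cKO (log2 fold change -0.44, SE 0.14, limma adjusted p = 0.0389). The controls lay above the Ptf1a cKO libraries for both. The call for Alg11 was lost without control replicate 1, control replicate 2, Ptf1a cKO replicate 1 or Ptf1a cKO replicate 3 (limma adjusted p = 0.121, 0.133, 0.0796 and 0.127, respectively). It was also lost by limma without the trend (adjusted p = 0.0624).

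Alg12, the mannosyltransferase that acts later on the lumenal side, went the other way. It was at 72.9, 71.02 and 68.2 in the controls and 97.2, 99.03 and 95.7 in Ptf1a cKO (log2 fold change 0.44, SE 0.12, limma adjusted p = 0.0206). The spread within each group was small, with an SD of 2.35 and 1.67 normalized counts, but the call was lost without control replicate 2, Ptf1a cKO replicate 1, Ptf1a cKO replicate 2 or Ptf1a cKO replicate 3 (limma adjusted p = 0.0587, 0.0591, 0.0529 and 0.0552, respectively). It was also lost with equal totals outside the digestive enzymes (log2 fold change 0.28, limma adjusted p = 0.151). The other 10 genes of the group did not pass the test and ranged from -0.31 to 0.51 on the log2 scale. Of these, Alg8, which adds the second glucose, was at 46.1, 40.7 and 28.2 in the controls and 53.6, 61.03 and 50.6 in Ptf1a cKO (log2 fold change 0.51, SE 0.21, limma adjusted p = 0.0921), with no overlap.

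Promoters of 52 of the 64 genes were found in RefSeq (GRCm38.p6), in 62 windows that ran from 250 bases before to 50 bases after a start. Alg12 held the single ER stress response element among the 62 windows (1.61%, against 0.119% of 32851 promoters), which was searched as CCAAT and CCACG with 9 bases between them on both strands. Its 250 bases before the start (chr15:88819319-88819568, minus strand) are shown with this element and a second CCACG in capitals, beside those of Pmm1 (chr15:81960931-81961180, minus strand), which rose most, with CCACG in capitals, and of Mgat1 (chr11:49243941-49244190, plus strand), in which no searched motif is marked. This is 1 of 3 windows of Mgat1, and another, not shown, holds CCACG on the minus strand at -61 to -57 from its start. E-boxes are marked in none of them. All run 5′ to 3′ up to the start.
Alg12: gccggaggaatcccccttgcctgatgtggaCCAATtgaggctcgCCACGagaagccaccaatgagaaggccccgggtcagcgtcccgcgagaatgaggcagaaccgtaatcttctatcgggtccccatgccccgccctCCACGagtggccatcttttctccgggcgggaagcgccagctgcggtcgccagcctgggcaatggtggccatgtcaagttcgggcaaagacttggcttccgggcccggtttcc
Pmm1: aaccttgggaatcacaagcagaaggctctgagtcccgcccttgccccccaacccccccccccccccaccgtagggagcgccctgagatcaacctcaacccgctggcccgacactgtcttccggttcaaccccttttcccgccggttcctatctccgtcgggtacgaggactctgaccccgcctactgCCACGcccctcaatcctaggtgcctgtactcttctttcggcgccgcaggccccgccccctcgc
Mgat1: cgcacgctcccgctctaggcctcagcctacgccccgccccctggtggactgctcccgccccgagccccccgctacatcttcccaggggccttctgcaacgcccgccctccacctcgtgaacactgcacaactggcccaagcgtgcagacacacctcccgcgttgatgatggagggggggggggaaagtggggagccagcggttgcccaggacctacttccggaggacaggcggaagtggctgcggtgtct
The short motif CCACG, which the long element contains, was in 31 of the 62 windows (50%) and in 32.8% of all promoters, and GACGTGG was in 2 windows (Pigb and Pigp; 3.23% against 2.42%). The E-box CANNTG was in 36 windows (58.1% against 72.3%). TTTCCCA, a part of the site of the Ptf1a complex, was in 2 windows (Alg8 and Gmppa; 3.23% against 8.06%). These windows were also richer in G and C than the rest, with a median of 61.8% against 52.7%. A match is a description of the letters in these windows only.

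Most subunits of the oligosaccharyltransferase did not pass the test. The catalytic subunits Stt3a, which acts on proteins during translocation, and Stt3b, which acts on sites left behind, had log2 fold changes near 0 and overlapping groups. Stt3a was at 603, 737 and 472 normalized counts in the controls and 588, 722 and 560.3 in Ptf1a cKO (log2 fold change 0.06, 95% interval -0.33 to 0.45). Stt3b was at 615, 697 and 806 in the controls and 686, 791 and 703 in Ptf1a cKO (0.05, 95% interval -0.25 to 0.34). The shared subunits Rpn1, Rpn2, Ddost and Dad1 had log2 fold changes of 0.11, -0.05, 0.20 and -0.06, with 95% intervals of -0.14 to 0.36, -0.32 to 0.22, -0.07 to 0.46 and -0.32 to 0.19. These intervals reach at most 0.46 in either direction. Ddost was higher without overlap between the groups, while Rpn1, Rpn2 and Dad1 overlapped.

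The 2 subunits that changed are alternatives to each other. Magt1 and Tusc3 are oxidoreductases that occupy the same place in the Stt3b complex. Magt1 was at 1154, 1204 and 1219.6 normalized counts in the controls and 838, 856 and 715 in Ptf1a cKO, or 67.3% of control (log2 fold change -0.57, SE 0.12, limma adjusted p = 0.00560). Tusc3 was at 114, 130.2 and 106 in the controls and 231, 179 and 230.4 in Ptf1a cKO, or 183% (log2 fold change 0.85, SE 0.14, limma adjusted p = 0.00223). Neither overlapped between the groups, and both calls held without any 1 library. Per kb of exon, Magt1 remained the more abundant of the pair, at 255 normalized counts per kb in the controls and 172 in Ptf1a cKO, against 33.9 and 62.3 for Tusc3.

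The 5 genes of glucose trimming split. Mogs, glucosidase I, which removes the first glucose after transfer, was at 695, 640.5 and 749 normalized counts in the controls and 303, 453 and 268 in Ptf1a cKO, or 49.2% of control (log2 fold change -1.05, SE 0.18, limma adjusted p = 0.00285). It was the largest decrease among the 64 genes, and Ptf1a cKO replicate 2 lay nearest to the controls. Glucosidase II, which takes the next glucoses, has a catalytic and a binding subunit. The catalytic Ganab did not pass the test (log2 fold change 0.03, 95% interval -0.22 to 0.28), while Prkcsh, the beta subunit that retains the enzyme in the ER, was at 276, 217 and 219.8 in the controls and 399, 375 and 417 in Ptf1a cKO (log2 fold change 0.74, SE 0.13, limma adjusted p = 0.00258). The Mogs and Prkcsh groups did not overlap.

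Uggt1 puts a glucose back on misfolded glycoproteins and so returns them to the chaperones. It was at 987, 993 and 1032 in the controls and 788, 926 and 839 in Ptf1a cKO (log2 fold change -0.24, SE 0.11, limma adjusted p = 0.122), with no overlap but without passing the test. Its paralog Uggt2 was at 27.8, 30.2 and 27.05 in the controls and 22.5, 37.3 and 24.5 in Ptf1a cKO (log2 fold change -0.04, SE 0.26, limma adjusted p = 0.920), with overlap. Uggt2 had the lowest level per kb of all 64 genes in both groups, at 2.22 and 2.20 normalized counts per kb, while Ddost, Rpn2, Gmppa and Magt1 had the highest in the controls (556, 476, 259 and 255).

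Among the 6 alpha-mannosidases, 2 fell and 1 rose. Man2a1, the main Golgi mannosidase II that acts after the first branch is started, was at 1749.6, 1952 and 1631 normalized counts in the controls and 1074, 1138 and 1006 in Ptf1a cKO, or 60.3% of control (log2 fold change -0.72, SE 0.12, limma adjusted p = 0.00222). Man2a2, the second gene of mannosidase II, was at 171, 165 and 159 in the controls and 232, 196 and 259 in Ptf1a cKO (log2 fold change 0.45, SE 0.13, limma adjusted p = 0.0242). Both separated the groups, in opposite directions. The call for Man2a2 was lost without control replicate 1, control replicate 2, control replicate 3, Ptf1a cKO replicate 1 or Ptf1a cKO replicate 3 (limma adjusted p = 0.0577, 0.0699, 0.0573, 0.0688 and 0.0858, respectively). It was also lost with equal totals outside the digestive enzymes (log2 fold change 0.29, limma adjusted p = 0.114).

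Of the Golgi mannosidases I, Man1a was at 1143, 1079 and 1032 in the controls and 941, 785 and 834 in Ptf1a cKO (log2 fold change -0.35, SE 0.12, limma adjusted p = 0.0456). This was the highest adjusted p of the 19 changes, and the call was lost without control replicate 1, control replicate 2, control replicate 3, Ptf1a cKO replicate 2 or Ptf1a cKO replicate 3 (limma adjusted p = 0.153, 0.121, 0.0530, 0.0971 and 0.0943, respectively), and also with sex as a covariate (0.0625), at the same 75th percentile (0.0689) and by limma without the trend (0.0665). Man1a2 was at 288, 282 and 371 in the controls and 258, 252 and 286 in Ptf1a cKO (log2 fold change -0.23, SE 0.13, limma adjusted p = 0.212), with overlap. Man1b1, the mannosidase that marks ER glycoproteins for degradation, and Man1c1 had log2 fold changes of 0.14 and -0.10 and did not pass.

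All 4 GlcNAc transferases of the table fell, with a median log2 fold change of -0.69, and none of the 4 overlapped between the groups; with equal library totals all 4 were higher and lay below the median gene, and limma without the trend called 2 of the 4 (adjusted p = 0.0609 for Mgat2 and 0.0589 for Mgat4a). Mgat1 starts the first branch and thereby all hybrid and complex N-glycans. It was at 534, 575 and 662 normalized counts in the controls and 318, 341 and 318 in Ptf1a cKO, or 55.1% of control (log2 fold change -0.85, SE 0.12, limma adjusted p = 0.000919). The SD was 65.5 normalized counts in the controls and 13.7 in Ptf1a cKO. Mgat2, which starts the second branch, was at 612, 668 and 695 in the controls and 414, 591 and 373 in Ptf1a cKO (log2 fold change -0.54, SE 0.17, limma adjusted p = 0.0344), with Ptf1a cKO replicate 2 just under the lowest control. The call for Mgat2 was lost without control replicate 1, control replicate 2, control replicate 3, Ptf1a cKO replicate 1 or Ptf1a cKO replicate 3 (limma adjusted p = 0.0696, 0.0976, 0.0925, 0.103 and 0.105, respectively).

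Mgat4a and Mgat4b add a further branch to the first arm. Mgat4b was at 531, 503 and 464 in the controls and 279, 347 and 221 in Ptf1a cKO, or 56.6% of control (log2 fold change -0.84, SE 0.16, limma adjusted p = 0.00441). Mgat4a was at 476, 592 and 552 in the controls and 406, 290.2 and 431 in Ptf1a cKO (log2 fold change -0.53, SE 0.16, limma adjusted p = 0.0332), and its call was lost without control replicate 2, control replicate 3 or Ptf1a cKO replicate 2 (limma adjusted p = 0.116, 0.0820 and 0.0639, respectively). For Mgat4a, unlike the other 3, replicate 2 was the lowest of the Ptf1a cKO libraries. The 4 genes together summed to 2153 to 2373 normalized counts in the controls and 1343 to 1569 in Ptf1a cKO.

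**Figure D2:**
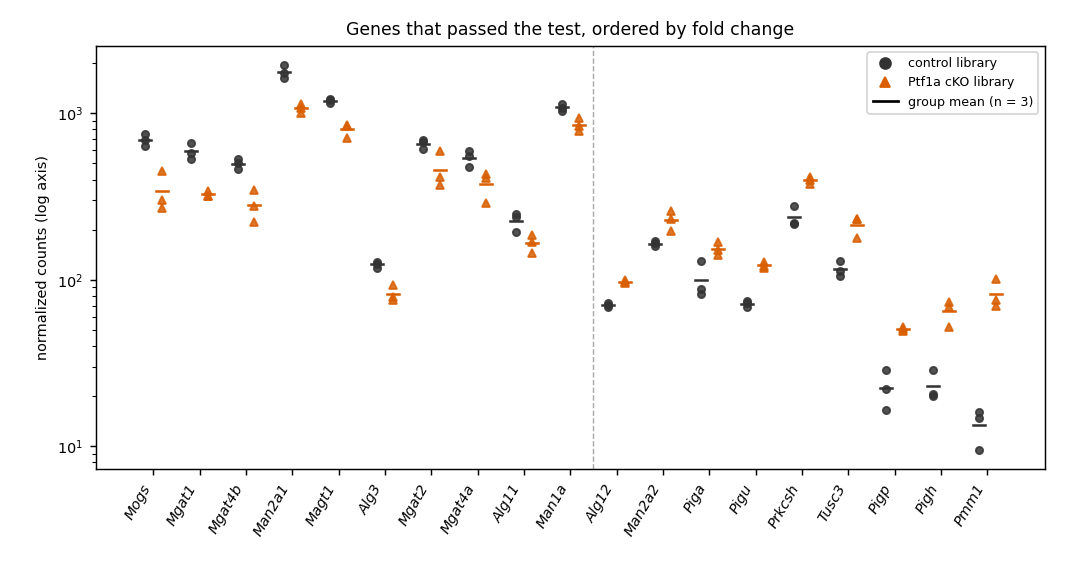
Normalized counts (log y axis) of the 19 genes that passed the test, in each control library (circles) and each Ptf1a cKO library (triangles), with group means (lines, n = 3), ordered by fold change and divided by a dashed line between the 10 that fell and the 9 that rose on the deposited scaling. The groups do not overlap for any of the 19, which were picked by a test on these same values. Over the table the groups do not overlap for 50.8% of genes. Pmm1, at the right, goes from 9.52 to 16.1 in the controls to 69.8 to 102 in Ptf1a cKO.

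Of the 4 GPI genes that rose, 3 belong to the first step of anchor assembly. This step, the transfer of GlcNAc to phosphatidylinositol, is made by a complex of Piga, Pigc, Pigh, Pigp, Pigq, Pigy and Dpm2, of which all but Pigy were in the table. Piga, the catalytic subunit, was at 82.5, 87.5 and 129 normalized counts in the controls and 151, 168 and 141 in Ptf1a cKO (log2 fold change 0.63, SE 0.18, limma adjusted p = 0.0236). Control replicate 3 lay close to the lowest Ptf1a cKO library, and the call was lost without control replicate 1, control replicate 2, Ptf1a cKO replicate 1 or Ptf1a cKO replicate 2 (limma adjusted p = 0.0870, 0.0839, 0.0577 and 0.0536, respectively). It was also lost with equal totals outside the digestive enzymes (log2 fold change 0.46, limma adjusted p = 0.0906). Pigh was at 28.7, 19.97 and 20.7 in the controls and 68.5, 52.00 and 73.5 in Ptf1a cKO, a 2.80-fold difference (log2 fold change 1.36, SE 0.22, limma adjusted p = 0.00209). Pigp was at 22.1, 28.9 and 16.6 in the controls and 50.3, 51.9 and 49.2 in Ptf1a cKO, a 2.24-fold difference (log2 fold change 1.08, SE 0.24, limma adjusted p = 0.00802).

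The rest of the complex did not pass the test. Pigc was at 67.1, 67.5 and 61.5 in the controls and 105, 82.3 and 78.3 in Ptf1a cKO (log2 fold change 0.41, SE 0.15, limma adjusted p = 0.0636), higher without overlap. Pigq was at 409, 395 and 448 in the controls and 366, 324 and 363 in Ptf1a cKO (log2 fold change -0.25, SE 0.11, limma adjusted p = 0.115), lower without overlap. Dpm2, which also serves dolichol-phosphate-mannose synthase, was at 123, 162 and 198 in the controls and 141, 134 and 129.7 in Ptf1a cKO, with overlap. So 3 of these 6 genes rose, and the log2 fold changes of the complex ran from -0.25 to 1.36. Per kb of exon, Pigq had the highest level of the 5 Pig genes of this step in both groups (68.95 and 58.05 normalized counts per kb) and Pigh the lowest in the controls (6.35).

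Pigh and Pigp carry a limit of the annotation. In GENCODE M21, exons of Plekhh1 on the opposite strand cover 27.3% of the exon bases of Pigh, and exons of Ttc3 on the opposite strand cover 16.4% of those of Pigp. Whether reads were counted by strand is not given in the sources used here. Plekhh1 was at 69.4, 67.5 and 51.9 normalized counts in the controls and 50.6, 71.5 and 73.8 in Ptf1a cKO (limma adjusted p = 0.880), with overlapping groups. Ttc3 was at 135, 116 and 152 in the controls and 163, 175 and 213 in Ptf1a cKO (log2 fold change 0.44, limma adjusted p = 0.0448) and rose with Pigp, though less. The part of Ttc3 in the value of Pigp was not tested. On the same strand, Gm15310 covers 11.8% of the exon bases of Pigp and 9230116L04Rik 5.83% of those of Pigh. Of the called N-glycan genes, Alg3 has 8.46% of its exon bases under Eef1akmt4 on the opposite strand. Genes that did not pass also share exon bases with a gene on the opposite strand, among them Gmppb (33.6%), Pigf (31.6%), Pigb (20.8%), Alg1 (17.6%) and Pigq (15.8%).

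The 9 later genes of the glycolipid did not pass the test. Pigl, the deacetylase of the second step, was at 20.7, 13.04 and 20.7 normalized counts in the controls and 35.8, 26.2 and 31.7 in Ptf1a cKO (log2 fold change 0.70, SE 0.29, limma adjusted p = 0.0948), higher without overlap. The mannosyltransferases Pigm (with its partner Pigx), Pigv and Pigb had log2 fold changes of -0.49 (0.14), -0.18 and -0.12. Of the genes that add ethanolamine phosphate, Pigo and its partner Pigf were lower without overlap, with Pigo at 269.8, 255 and 287 in the controls and 201, 207 and 240.1 in Ptf1a cKO (log2 fold change -0.32, SE 0.12, limma adjusted p = 0.0588). Pigf was at 63.6, 55.99 and 58.6 in the controls and 36.5, 49.6 and 42.04 in Ptf1a cKO (log2 fold change -0.45, SE 0.17, limma adjusted p = 0.0703). Pign and Pigg, which act on other mannoses, were at 0.19 and 0.12 on the log2 scale.

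One of the 5 transamidase genes rose. Pigu was at 68.4, 74.4 and 72.98 normalized counts in the controls and 121, 118 and 127 in Ptf1a cKO, or 169.6% of control (log2 fold change 0.74, SE 0.12, limma adjusted p = 0.00187), with SDs of 3.15 and 4.74 and calls in all 6 fits without 1 library. The catalytic subunit Pigk had a log2 fold change of 0.11, and Pigs, Pigt and Gpaa1 had 0.27, -0.07 and -0.06. Their groups overlapped, and none passed the test.

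**Figure D3:**
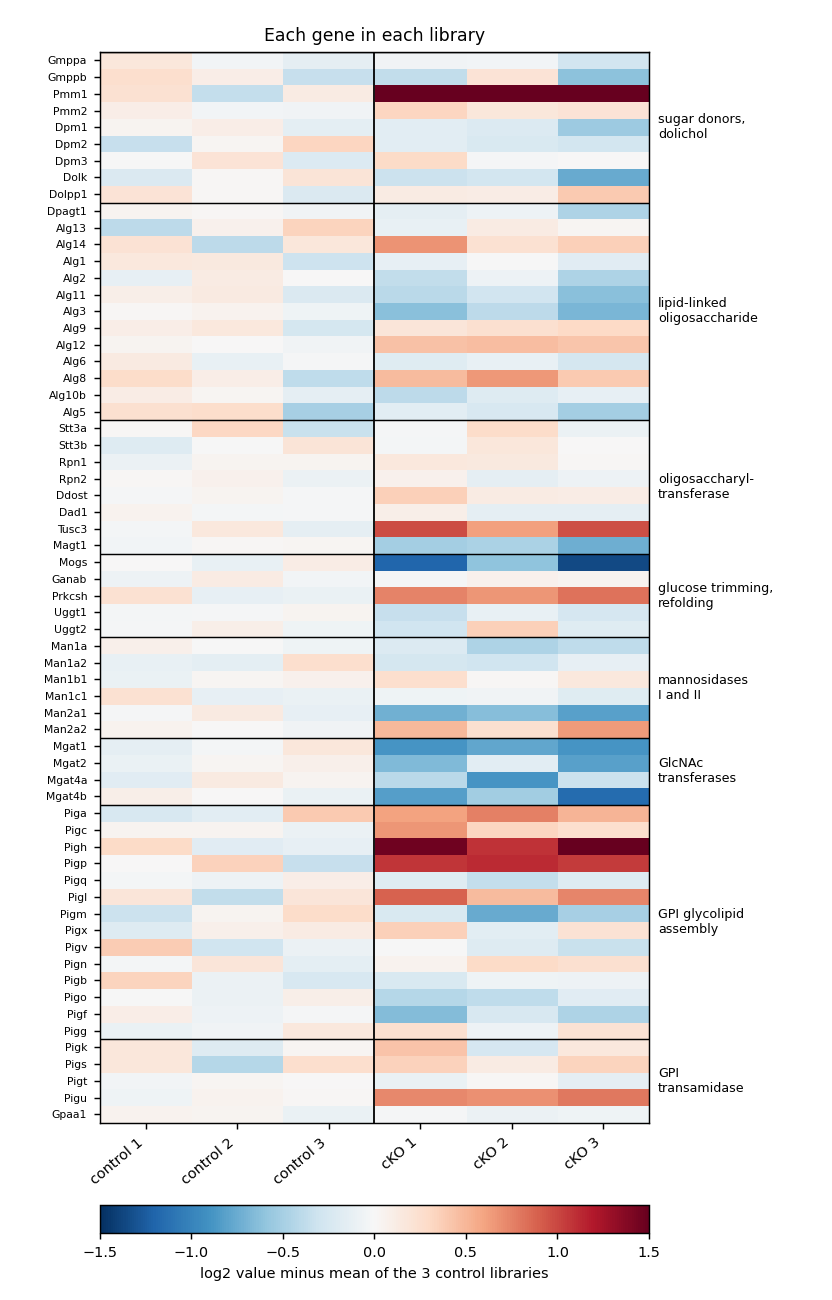
Log2 value of each of the 64 genes (rows, by role) in each of the 6 libraries (columns) minus the mean of the 3 controls, on the deposited scaling. Colours stop at 1.5 in either direction, so the change of Pmm1 (log2 fold change 2.35) is beyond the end of the scale; replicate 2 is the palest of the Ptf1a cKO libraries for genes such as Mogs, Mgat2 and Mgat4b.

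Ratios between related genes within a library do not depend on how libraries are scaled, apart from the pseudocount. Of 8 pairs, the groups did not overlap in 3. No share over other gene pairs was computed, and over the table the groups did not overlap for 50.8% of single genes. The ratio of Tusc3 to Magt1 was 0.0984, 0.108 and 0.0867 in the controls and 0.276, 0.210 and 0.322 in Ptf1a cKO, a rise of 1.42 on the log2 scale (SE 0.20). The ratio of Pmm1 to Pmm2 was 0.0758, 0.0495 and 0.0768 in the controls and 0.408, 0.336 and 0.306 in Ptf1a cKO, a log2 difference of 2.12 (SE 0.20). The ratio of Man2a1 to Man2a2 was 10.2, 11.8 and 10.3 in the controls and 4.63, 5.81 and 3.89 in Ptf1a cKO, a log2 difference of -1.18 (SE 0.18).

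In each of these 3 pairs the gene with the lower level per kb in the controls gained on its partner, and its mean level per kb stayed below the partner's in Ptf1a cKO. By the exact two-sided permutation test each gave p = 0.1, the smallest that 3 libraries against 3 allow, and 0.267 after adjustment over the 8 pairs, so the test cannot pass 0.05 here. The other 5 ratios overlapped between the groups. The log2 difference was 0.01 for Stt3a to Stt3b (SE 0.27), -0.12 for Man1a to Man1a2, -0.20 for Uggt1 to Uggt2, 0.13 for Gmppa to Gmppb and 0.30 for Mgat4a to Mgat4b, with exact permutation p between 0.3 and 1.

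**Figure D4:**
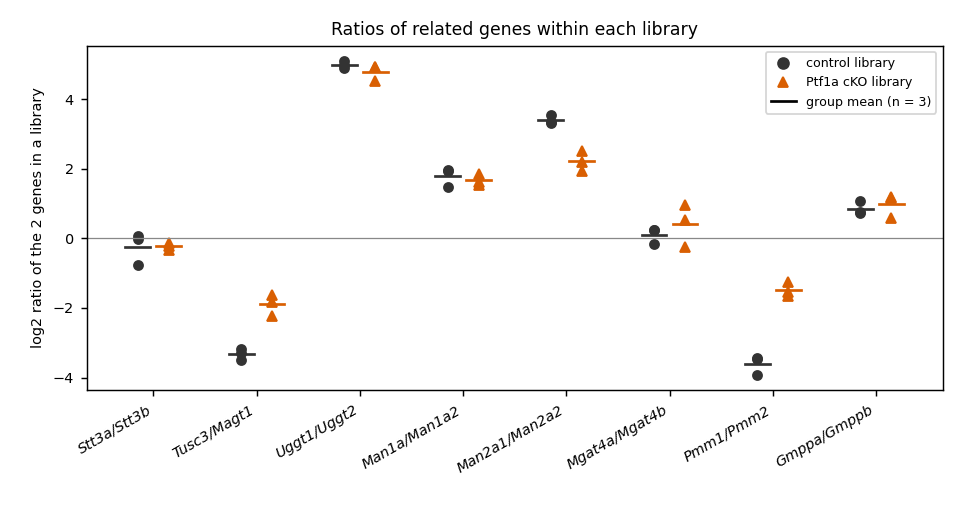
Log2 ratio of 2 related genes within each library (y axis) for 8 pairs (x axis), with control libraries as circles, Ptf1a cKO libraries as triangles and group means as lines (n = 3). The groups separate for Tusc3/Magt1, Man2a1/Man2a2 and Pmm1/Pmm2, by 1.42, -1.18 and 2.12 on the log2 scale, and overlap for the other 5 pairs.

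The 3 Ptf1a cKO libraries differed in how far they lay from the controls. Replicate 2 lay nearest to the control mean for 8 of the 10 genes that fell and for 5 of the 9 that rose, that is for 13 of 19 (68.4%). Over all 3475 genes that changed, replicate 2 was nearest in 60.2%. It also held the most Ptf1a (19.8, 70.1 and 10.2 normalized counts in replicates 1 to 3), the largest sum of the acinar markers, 4.10e+06 against 2.34e+06 and 1.33e+06, and the smallest sum of the ductal markers, 25276 against 92289 and 109688. Leukocyte markers summed to 419 to 696 normalized counts in the controls and 1109.97 to 2269 in Ptf1a cKO, with 1109.97 in replicate 2 as the lowest. Fibroblast and stellate markers summed to 2836 to 3148 in the controls and to 5431, 9955 and 6986 in Ptf1a cKO replicates 1 to 3, so that the sum of replicate 2 was the farthest from the controls. The genes of this list differed. In Ptf1a cKO replicates 1 to 3 Col3a1 was at 1510, 3756 and 2169, while Acta2 was at 164, 73.2 and 168, nearest to the controls in replicate 2. Endocrine markers varied within both groups, from 11369 to 42640 in the controls and from 5817 to 33247 in Ptf1a cKO. The part of these cell types in the changes of the glycan and anchor genes was not tested.

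Genes around the 2 pathways were followed as companion lists, which held 60 genes, of which 49 were in the table. Of these 7 fell (14.3%) and 18 rose (36.7%), against 16.8% and 17.1% of all genes. Of the 18 that rose, 10 were among the 16 genes of GPI-anchored proteins. In the supply of sugars and dolichol, 3 of 12 rose and none fell by limma, with 7 higher and 0 lower at an unadjusted p under 0.05 and 3 and 0 calls without the trend and with robust estimation. Slc35a3, the Golgi transporter of UDP-GlcNAc, the donor of the Mgat enzymes, was at 181, 201 and 170.4 normalized counts in the controls and 624, 554 and 779.8 in Ptf1a cKO (log2 fold change 1.80, SE 0.14, limma adjusted p = 8.44e-05). Its direction was opposite to that of the 4 Mgat genes. Gfpt2, a first enzyme of the hexosamine pathway to UDP-GlcNAc, was at 23.2, 26.7 and 25.1 in the controls and 61.7, 64.3 and 56.8 in Ptf1a cKO (log2 fold change 1.18, SE 0.18, limma adjusted p = 0.00154). Uap1, the last enzyme of that pathway, was at 322, 327 and 353 in the controls and 887, 447 and 589 in Ptf1a cKO (log2 fold change 0.88, SE 0.21, limma adjusted p = 0.0135).

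None of the 4 small oligosaccharyltransferase subunits in the table passed the test by limma (1 was lower at an unadjusted p under 0.05, and 0 passed without the trend or with robust estimation), and their log2 fold changes ran from -0.35 to 0.04. Among the 10 lectin chaperones and genes of glycoprotein degradation, 3 fell and 3 rose. Edem1 and Edem3, which hand mannose-trimmed proteins to degradation, fell to 59.5% and 58.2% of control (log2 fold changes -0.76 and -0.78), and Ngly1, the cytosolic enzyme that strips N-glycans, fell to 66.6% (-0.58). The chaperone Calr rose (0.56), as did Erlec1 (0.49) and Engase (0.70), while its membrane-bound counterpart Canx had -0.30 (limma adjusted p = 0.0699).

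The cargo receptor for N-glycosylated proteins, Lman1, fell from 1664, 1754 and 1867 in the controls to 1159, 1297 and 1019 in Ptf1a cKO (log2 fold change -0.61, SE 0.13, limma adjusted p = 0.00674). Its soluble partner Mcfd2 fell from 3352, 3397 and 3667 in the controls to 1289.9, 1737 and 1148 in Ptf1a cKO (log2 fold change -1.34, SE 0.16, limma adjusted p = 0.000499). Both genes were lower in every Ptf1a cKO library than in any control. Lman2l, a related lectin, was at 57.1, 75.6 and 90.2 in the controls and 127, 129 and 121 in Ptf1a cKO and rose (log2 fold change 0.75, SE 0.17, limma adjusted p = 0.00856). Of 3 genes that remodel the finished GPI anchor, Pgap3 rose (log2 fold change 0.73, SE 0.17, limma adjusted p = 0.0112).

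The substrates of the anchor were 16 genes of GPI-anchored proteins. Of these 2 fell (12.5%) and 10 rose (62.5%), against 16.8% and 17.1% of all genes. Gp2, the zymogen granule protein, was at 132665, 135148 and 102130.0 normalized counts in the controls and 17050.3, 28036 and 10764 in Ptf1a cKO (log2 fold change -2.82, SE 0.36, limma adjusted p = 0.000601). It made up most of the summed counts of these 16 genes in the controls, 106696 to 139278 in all, and the sum was 32645 to 48636 in Ptf1a cKO. Gpc1 also fell (log2 fold change -1.71, SE 0.22, limma adjusted p = 0.000620). The risers included Ly6e, at 3439, 2760.3 and 3175 in the controls and 22485, 18987 and 19635 in Ptf1a cKO (log2 fold change 2.71, SE 0.16, limma adjusted p = 1.86e-05), and Cd59a, a complement regulator, at 92.3, 75.7 and 56.6 in the controls and 656, 233 and 307 in Ptf1a cKO (log2 fold change 2.24, SE 0.34, limma adjusted p = 0.00138). Thy1, a surface protein of fibroblasts and T cells, was among the risers (1.79), and leukocyte and fibroblast markers rose in the same libraries. Their part in the counts of this list was not tested. Nt5e passed the test with overlapping groups, at 3.58, 3.60 and 11.6 in the controls and 63.8, 11.1 and 82.5 in Ptf1a cKO.

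**Figure D5:**
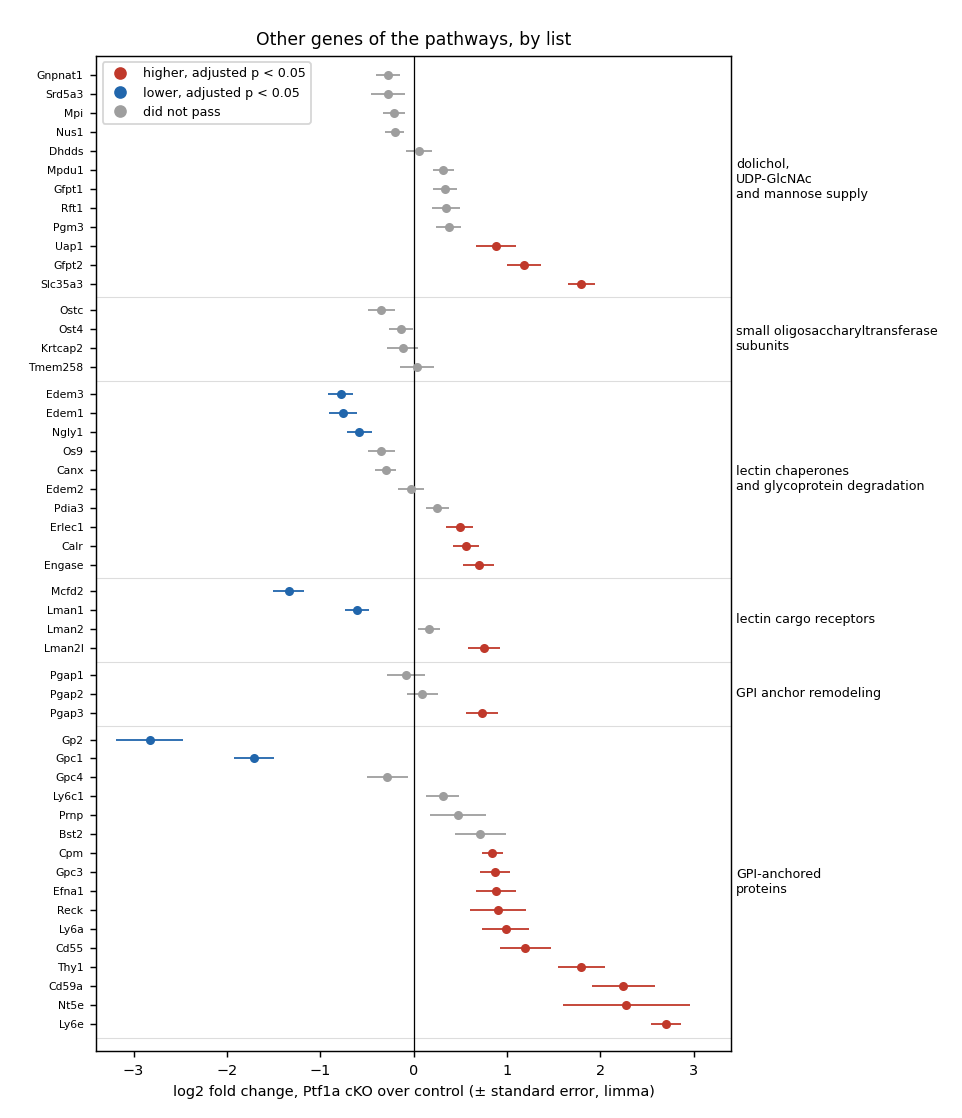
Log2 fold change (x axis, Ptf1a cKO over control, deposited scaling) with its standard error from limma for 49 companion genes of the 2 pathways, by list. Of these 7 fell (blue, 14.3%) and 18 rose (red, 36.7%), against 16.8% and 17.1% of all genes. The 16 genes of GPI-anchored proteins, with 10 of the 18 that rose, span from -2.82 for Gp2 to 2.71 for Ly6e. With equal library totals 1 of the 49 was lower and 46 were higher.

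The share of all gene counts that fell on the 64 genes was larger in each Ptf1a cKO library than in any control. They took 0.108% to 0.125% of the summed gene counts in the controls and 0.232% to 0.355% in Ptf1a cKO, while their own sum was 22476 to 23414 normalized counts in the controls and 19602 to 21036 in Ptf1a cKO. The sum over all genes was between 17949889 and 21175836 in the controls and between 5527104 and 8981107 in Ptf1a cKO. With equal library totals 9587 of the 10245 genes of the table were called higher. The median gene was then at log2 1.48 and the median of the 64 genes at 1.39, so a larger share was not particular to the 64 genes.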

How the data were processed

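Whole-pancreas RNA of 3 control and 3 Ptf1a cKO mice was sequenced as single-end reads of 50 nt. The authors aligned reads with Tophat2 and compared groups with edgeR after TMM normalization. Their processing notes list TopHat2 2.0.4, Bowtie 0.12.7.0, SAMtools 0.1.18.0, HTSeq 0.6.0 and build mm9. The deposited table holds a signal per gene symbol and library, namely normalized read counts. How it was scaled and whether counting used strand are not given in the sources used here. The values are not whole reads and the scaling leaves no depth in them, so precision rests on the spread over 3 mice per group. Entries without a gene (3 counter totals, 75.7% to 82.6% of the normalized counts of a library) were left out. Most of these were alignments that were not unique, at 74.4% to 76.2% in the controls and 77.3% to 81.1% in Ptf1a cKO. In addition, 17 symbols had turned into dates. A further marker of the cell type lists is not reported here.

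Values were divided by 13.6393, a common factor, and log2(value + 0.25) was taken, which makes the pseudocount 3.41 normalized counts and understates changes of low genes. A filter of a mean of at least 0.25 removed no gene. Groups were compared by limma 3.58.1 (R 4.3.3) fitted with a trend of variance on mean, without covariates, two-sided, with Benjamini-Hochberg adjustment over 10245 genes and a threshold of 0.05. The fit was tested on simulated data. Means and SDs are of the normalized counts, and standard errors are those of the fit. Ratios of related genes were compared by an exact two-sided permutation test over libraries (scipy 1.17.1). Exon lengths and overlaps came from GENCODE M21 (GRCm38) by symbol, and promoters from RefSeq (GRCm38.p6).

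The members and lists were chosen with earlier results of these data known. Values in all libraries are given for up to 3 genes per role with the largest change among those past the threshold with separate groups, for related pairs, for Dpagt1 and Piga, and for genes that went against their role. Some further genes were given values after theirs had been seen, namely Alg8, Pigc, Pigq, Pigl, Pigo, Pigf, Dpm2, Gpc1, Ly6e, Cd59a, Thy1, Nt5e and the genes overlapping Pigh and Pigp. Alternatives were other pseudocounts (0.05 and 1), filters, library scalings, variance models, a sex term, the replicate number as a block, and leaving out each library. The deviations of same-numbered libraries from their group means correlated at 0.04, 0.13 and 0.14. Those of unlike-numbered libraries correlated at -0.20 to 0.08. Whether the numbers mark a pairing cannot be told from these values.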

Additional observations from a re-analysis of the deposited data

How the results depend on the processing

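Of the 64 genes, 10 were lower and 9 higher. Across the fits without 1 library the counts were 6 to 10 lower and 6 to 8 higher, with 6 lower without control replicate 2. With libraries at the same total they were 0 and 63, and at the same total outside digestive enzymes 16 and 6. Of the 38 genes left with a mean of at least 10 on the scaled values, 10 were lower and 3 higher, with fewer genes tested. Limma without the trend gave 7 lower and 10 higher. The replicate block gave 9 lower and 9 higher. Whether the replicate numbers mark a pairing is not known. Ptf1a cKO replicate 1 correlated best with control replicate 2 (0.08, against 0.04 with control replicate 1). The block ended the call of Man1a (limma adjusted p = 0.0516) and of none of the other 18. For the companion genes (7 lower, 18 higher) the same total gave 1 and 46, the total outside digestive enzymes gave 13 lower, and the mean of at least 10 gave 10 higher. The log2 difference of the Pmm1/Pmm2 ratio was 1.60 with a pseudocount of 1, against 2.12.

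At the same total, where the median gene was at 1.48, these genes turned from negative to positive log2 fold changes: Gmppa 1.36, Gmppb 1.22, Dpagt1 1.25, Alg11 1.03, Alg3 0.88, Magt1 0.92, Mogs 0.44, Uggt1 1.25, Uggt2 1.29, Man1a 1.14, Man1a2 1.25, Man2a1 0.77, Mgat1 0.64, Mgat2 0.95, Mgat4a 0.95 and Mgat4b 0.65. At the total outside digestive enzymes Stt3a and Stt3b were at -0.11 and -0.12, and at the same 75th percentile Uggt2 was at 0.00060. Without 1 library Stt3a ranged from -0.11 to 0.21, Stt3b from -0.047 to 0.15 and Uggt2 from -0.24 to 0.087. These 3 did not pass the test and lay near 0. Over 496 values of the 28 genes described by library, 427 kept their direction and side of the threshold, 40 lost the call, 3 gained one and 26 changed sign. The cause of these changes was not tested. No interval for counting error was computed, since the deposited values are scaled and not whole reads, and 3 mice per group limit all p-values.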

Other observations

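Creld2, the neighbour of Alg12 on the other side of the same promoter region and a gene known to respond to ER stress, was looked up after the values of Alg12 had been seen. It was at 959, 935 and 938 normalized counts in the controls and 914, 952 and 637 in Ptf1a cKO (log2 fold change -0.20, limma adjusted p = 0.353), so its groups overlapped while those of Alg12 did not.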
